A study of Homo sapiens with 20 samples.

Results

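42MGBA is a human glioblastoma (GBM) cell line with a truncating STAG2 mutation of its own, and 42MGBA 53-1 is its derivative in which that mutation was corrected by gene editing. The chromatin loops compared here are those that changed most between these STAG2-mutant and STAG2-corrected cells. Hi-C, which joins and sequences DNA segments that were near each other in the nucleus, was performed on 2 replicates of each cell line, grown in the same medium and without any treatment. The authors pooled the replicates into 1 loop list per cell line, of 300000 anchor pairs with a loop strength. The 100000 strongest pairs of both lists were merged, which gave 131211 anchor pairs out of 572000 listed in any of the 4 cell lines of the series. They were ranked by the log2 ratio of loop strength in 42MGBA 53-1 over 42MGBA, so that a negative value is a loop weaker after STAG2 correction. The 1312 pairs at the bottom (1% of those merged) are called weaker and the 1312 at the top (1%) stronger, 2624 in all.

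The corrected genotype is represented by the single derivative 53-1, and changes that arose while it was derived cannot be told apart from an effect of STAG2. With 1 pooled list per cell line there is no replicate error, and no read counts are given, so that depth and counting error are unknown. The values below therefore describe these libraries, and no test was possible. Where a list did not hold a pair, its minimum was used instead, 4.49 in 42MGBA and 4.28 in 42MGBA 53-1, so that its ratio is a lower bound on the size of the change. STAG2 itself had no listed pair at a gene start in either cell line, so that these lists hold no check of the genotype at that locus. Its paralog STAG1 had 2 merged pairs at its start, both higher in 42MGBA 53-1 and neither at an extreme, the larger with a log2 ratio of 0.46.

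Cohesin is a ring that holds and extrudes chromatin into loops, and it contains either STAG1 or STAG2 as a subunit. Extrusion often halts where CTCF is bound, and the anchors of stable loops tend to carry CTCF motifs that point toward each other. Such loops bring enhancers to gene promoters or set the limits within which they act. Complexes with STAG1 are known to be favoured at CTCF-bound boundaries, and complexes with STAG2 also act at enhancers away from them.

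The core of the CTCF motif (CCA, AG and GGC, each separated by 2 free bases, searched on both strands) was found in 8465 of 46536 anchors (18.2%). Shown here are examples of matches that face each other in 5 of the leading loci, 3 of them weaker and 2 stronger after correction, since the share of loops with such matches differed between the groups. Further facing matches in these loci are not shown. The motif is in capitals within 30 bases of the reference genome (hg19), each read 5′ to 3′ on the strand given.
KCNQ5 locus, left anchor, chr6:73326319-73326348, plus strand: atgtcagtaCCACTAGGGGGCacagactag
KCNQ5 locus, right anchor, chr6:73831602-73831631, minus strand: agataccacCCACCAGGAGGCatttcccat
KCNQ5 locus, right anchor, chr6:73839807-73839836, minus strand: gttgtccaaCCACAAGGAGGCgccaaaggg
DSCAM locus, left anchor, chr21:41839003-41839032, plus strand: atattttggCCACCAGAGGGCtcccagatt
DSCAM locus, right anchor, chr21:42441143-42441172, minus strand: tcctcaatgCCAGCAGAGGGCgcgagcgga
MICAL2 to TEAD1 locus, left anchor, chr11:12353007-12353036, plus strand: cacaaagtgCCAGCAGGTGGCagcaggagc
MICAL2 to TEAD1 locus, right anchor, chr11:12912917-12912946, minus strand: cctcatcagCCACCAGCTGGCcaacagtat
SEMA3D locus, left anchor, chr7:83563636-83563665, plus strand: taatatttaCCACTAGAGGGCatttttctt
SEMA3D locus, right anchor, chr7:84652573-84652602, minus strand: ttactcttaCCACCAGGGGGCaggtcatgc
MEIS2 locus, left anchor, chr15:37176015-37176044, plus strand: ctctaattgCCAGCAGGGGGCgctctgatg
MEIS2 locus, right anchor, chr15:37433888-37433917, minus strand: aggtaagagCCATCAGATGGCaattctgtc

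A motif match shows only that these letters are present, not that CTCF was bound there in 42MGBA cells.

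The weaker tail reached further than the stronger tail. Weaker pairs had log2 ratios from -1.83 to -0.93 with a median of -1.02, and stronger pairs from 0.63 to 1.21 with a median of 0.70. The median over all merged pairs was -0.11. Both tails lie outside this shared shift by the way they were taken, as the lowest and highest 1% of the same ratio. The last weaker pair had a log2 ratio of -0.926933 and the next pair outside the tail -0.92681, while the last stronger pair had 0.62606 and the next outside 0.625874, so that the limits cut a continuous distribution. In 42MGBA the median strength of the weaker pairs was 9.27. In 42MGBA 53-1 it was 4.28, which is the list minimum given to absent pairs and not a measured strength. The stronger pairs rose from a median of 4.59 to 7.79. Of the weaker pairs, 662 were absent from the 42MGBA 53-1 list, and of the stronger pairs 564 were absent from the 42MGBA list. The remaining 650 and 748 pairs were listed in both cell lines and reached log2 ratios of -1.48 and 1.14.

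**Figure D1:**
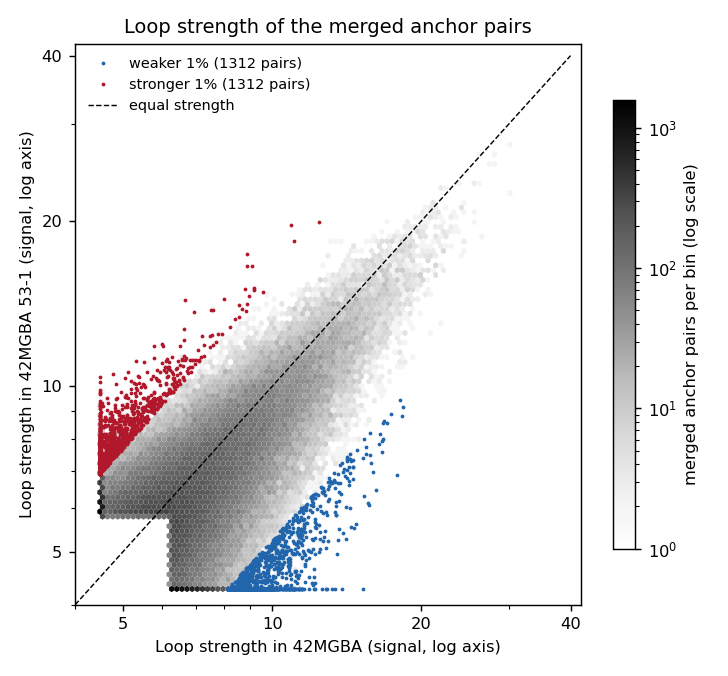
Loop strength (a signal without unit) of the 131211 merged anchor pairs in 42MGBA on the horizontal axis and 42MGBA 53-1 on the vertical axis, both logarithmic, with grey shade for the number of pairs, blue for the 1312 weaker and red for the 1312 stronger pairs. The rows of points along the lower and left edges are pairs absent from a list, drawn at 4.28 and 4.49, and the weaker pairs extend further from the line of equal strength than the stronger ones.

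Neighbouring pairs, whose anchor midpoints both lay within 10 kb of another pair's, were joined into loci. The weaker pairs formed 301 loci on 21 chromosomes, of which 146 held at least 3 pairs, 96 were single pairs and the largest held 50. The stronger pairs formed 358 loci on 23 chromosomes, 161 of them with at least 3 pairs, 128 single and the largest with 40. Joined by overlap of their spans, these made 226 weaker and 259 stronger regions. The enhancement step smooths the signal over neighbouring anchors, so that the pairs of a locus are not independent measurements.

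The 2 loci with the largest loss of strength both ended inside KCNQ5, which encodes a voltage-gated potassium channel subunit that dampens neuronal firing. The first joined the intergenic stretch just past RIMS1, a gene for a presynaptic release protein, to an intron of KCNQ5. Its most extreme pair spanned 768 kb and had a strength of 15.2 in 42MGBA, while it was absent from the 42MGBA 53-1 list, a fall of at least 3.56-fold. All 18 pairs of that locus were absent from the 42MGBA 53-1 list, with strengths from 8.21 to 15.2 in 42MGBA. The second locus lay within KCNQ5 itself and joined its start to a site near its 3′ end, across 511 kb in the most extreme pair. That pair had a strength of 13.8 in 42MGBA and was likewise absent after correction, and all 16 pairs of the locus were absent there. Convergent CTCF motifs were present in 4 of these 16 pairs. The KCNQ5 start as a whole went from 70 listed pairs in 42MGBA to 0 in 42MGBA 53-1. The region held 116 merged pairs, all of them lower in 42MGBA 53-1, with a median log2 ratio of -0.85, against -0.36 over chromosome 6. The 116 include the 48 weaker pairs that defined the region, so that a low median is partly built in.

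Chromosome 11 carried 6 of the 12 leading weaker loci. At KIAA1549L the most extreme of 15 pairs fell from 12.2 to 4.38, a log2 ratio of -1.48, and this was the largest loss among pairs listed in both cell lines. A pair of loci had their left anchor in MICAL2, which encodes an actin-disassembling enzyme. The wider, of 636 kb in its most extreme pair, enclosed PARVA, a focal adhesion gene, and TEAD1, a transcription factor of the Hippo pathway, and all of its 11 pairs were absent after correction, from strengths of 8.18 to 11.9. The narrower ended in TEAD1, and its 11 pairs were also all absent, from strengths of 8.27 to 11.3. Around SESN3, a stress response gene, 33 and 22 pairs formed 2 loci from the same left anchors. Their most extreme pairs fell from 12.04 to 4.38 and from 12.1 to 4.49. Between PDHX, a pyruvate dehydrogenase subunit, and SLC1A2, the main glutamate transporter of astrocytes, 22 pairs enclosed CD44, the receptor for hyaluronan. The most extreme of them fell from 13.5 to 4.95. The median log2 ratio over all merged pairs of chromosome 11 was -0.43, and the medians of these 6 loci ran from -1.25 at the narrower SESN3 locus to -1.08 at KIAA1549L and at the MICAL2 to TEAD1 locus.

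The other 4 leading weaker loci lay on different chromosomes. DSCAM, a neuronal cell adhesion gene on chromosome 21, held the left anchor of 10 pairs of about 602 kb, all absent after correction, the strongest with 11.6 in 42MGBA. On chromosome 8, 9 pairs enclosed HAS2, a hyaluronan synthase, and the most extreme had 11.4 in 42MGBA and was absent after correction. The widest locus ran over 1335 kb on chromosome 2 from an intergenic anchor to GRB14, an adapter of insulin signalling, and enclosed FIGN, a microtubule-severing gene. Of its 30 pairs 26 were absent from the 42MGBA 53-1 list, and the most extreme had 11.3 in 42MGBA. On chromosome 6, 14 pairs joined the area of SGK1, a kinase of the stress and hormone response, to ALDH8A1, a retinal dehydrogenase, and the most extreme fell from 11.9 to 4.50.

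Among the stronger loci, RAD51B on chromosome 14, a gene of homologous recombination, led. The most extreme pair joined intronic anchors of the gene over 101 kb. It was absent from the 42MGBA list but had 10.4 in 42MGBA 53-1, a rise of at least 2.31-fold. It belonged to a locus of 18 pairs, 16 of them absent from 42MGBA. Further loci of 40 and 14 pairs lay in RAD51B as well, and their most extreme pairs rose from 5.04 to 10.4 and from 4.53 to 9.31. With ZFP36L1, an mRNA decay factor whose start lay at the right end, the RAD51B region held 93 stronger pairs in 8 loci, more than any other region. It was not uniform, since of 629 merged pairs there 483 were higher and 146 lower in 42MGBA 53-1.

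Long stronger loci existed as well. On chromosome 5, 10 pairs of 1147 kb joined NNT, a mitochondrial transhydrogenase, to an intergenic anchor across FGF10, a growth factor, and the most extreme rose from 4.77 to 10.5. On chromosome 7, 33 pairs of 1096 kb ended at SEMA3D and enclosed SEMA3A, both of them genes for secreted axon guidance proteins. The most extreme was absent from 42MGBA and had 9.86 in 42MGBA 53-1, and the strongest pair of the locus had 12.4 in 42MGBA and 19.9 in 42MGBA 53-1.

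Shorter loci made up the rest. ARHGAP29, a GTPase-activating protein gene on chromosome 1, had 32 pairs from its gene body to a stretch beyond its start, 27 of them absent from 42MGBA, and the most extreme had 9.33 in 42MGBA 53-1. The ARHGAP29 region held 51 stronger pairs. TCTN3, a gene of the primary cilium, and ENTPD1, an enzyme that degrades extracellular ATP, faced each other across 152 kb on chromosome 10, and their most extreme pair was absent from 42MGBA and had 9.21 in 42MGBA 53-1. A locus of 14 pairs around MEIS2, a homeobox gene on chromosome 15, had a most extreme pair of 4.65 in 42MGBA and 9.30 in 42MGBA 53-1. AFF3, a nuclear transcription cofactor on chromosome 2, had 11 pairs with a most extreme rise from 5.11 to 10.6. A locus of 9 pairs on chromosome 9 enclosed SLC1A1, a neuronal glutamate transporter, and rose from 4.83 to 10.1 at most. A locus of 8 pairs on chromosome 15 enclosed ZNF280D, a zinc finger gene, and its most extreme pair was absent from 42MGBA and had 9.76 in 42MGBA 53-1.

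**Figure D2:**
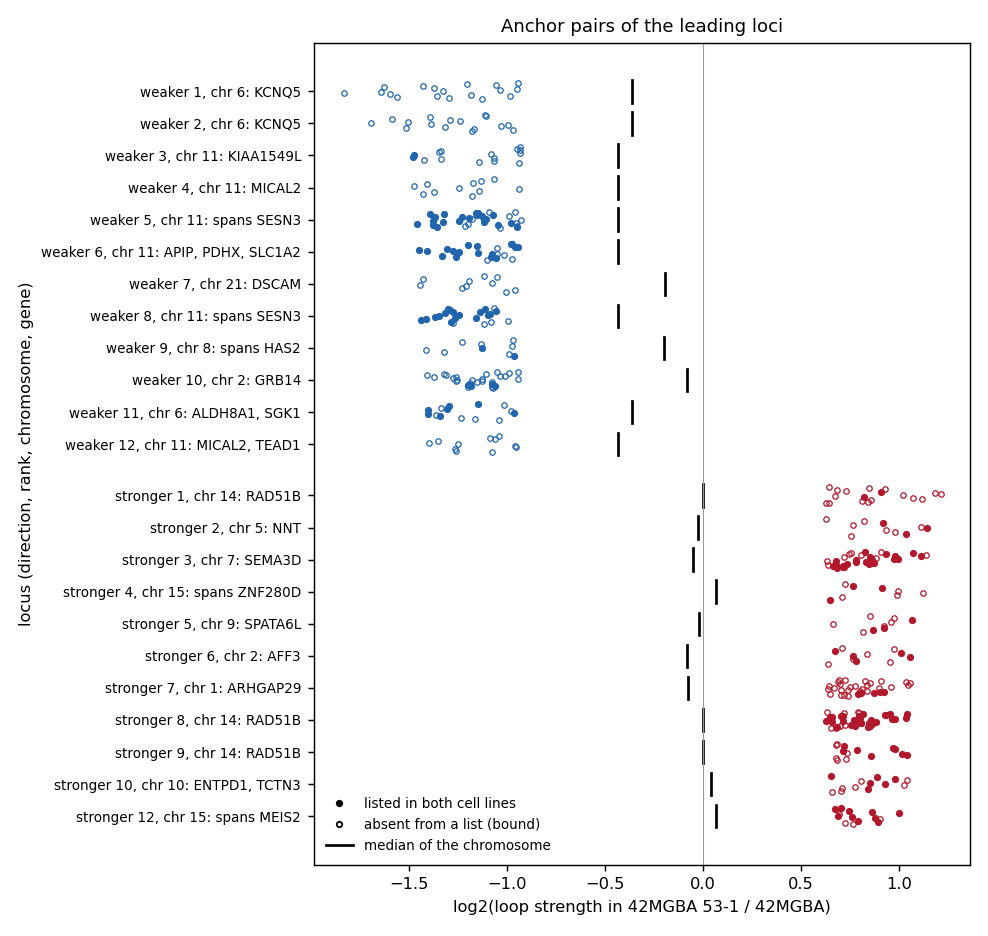
Log2 ratio of loop strength (42MGBA 53-1 over 42MGBA) for every anchor pair of the 12 leading weaker (blue) loci and 11 of the leading stronger (red) loci, 1 row per locus, with open points for pairs absent from a list and a black bar for the median of all merged pairs of that chromosome. The bars of chromosomes 6 and 11 lie at -0.36 and -0.43, and both KCNQ5 loci consist of open points alone.

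Counted by region, the largest weaker area was not among the leading loci. On chromosome 7, 61 weaker pairs surrounded MEOX2, a mesoderm homeobox gene. All 227 merged pairs there were lower in 42MGBA 53-1, with a median log2 ratio of -0.74 against -0.05 over the chromosome. The 227 include the 61 that defined the region, so that a low median is partly built in. The SESN3 region held 59 weaker pairs, the KCNQ5 region 48 and the FIGN region 46. On chromosome 4, a region with 35 weaker pairs in 7 loci enclosed FIP1L1, LNX1, CHIC2 and GSX2 and ended at the start of PDGFRA, a receptor tyrosine kinase often amplified in GBM. Weaker pairs lay at the starts of PDGFRA and of LNX1, a ubiquitin ligase. On chromosome 20, 30 weaker pairs lay around JAG1, a Notch ligand, with 13 of them at its start. Among stronger regions, 41 pairs lay inside PDE4D, a cyclic AMP phosphodiesterase on chromosome 5, and 36 in the SEMA3A and SEMA3D region. A further 29 lay in a stretch of chromosome 15 with no protein-coding gene wholly inside it. The arc maps show where the extreme pairs of the KCNQ5, ARHGAP29 and SEMA3D regions lie.

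**Figure D3:**
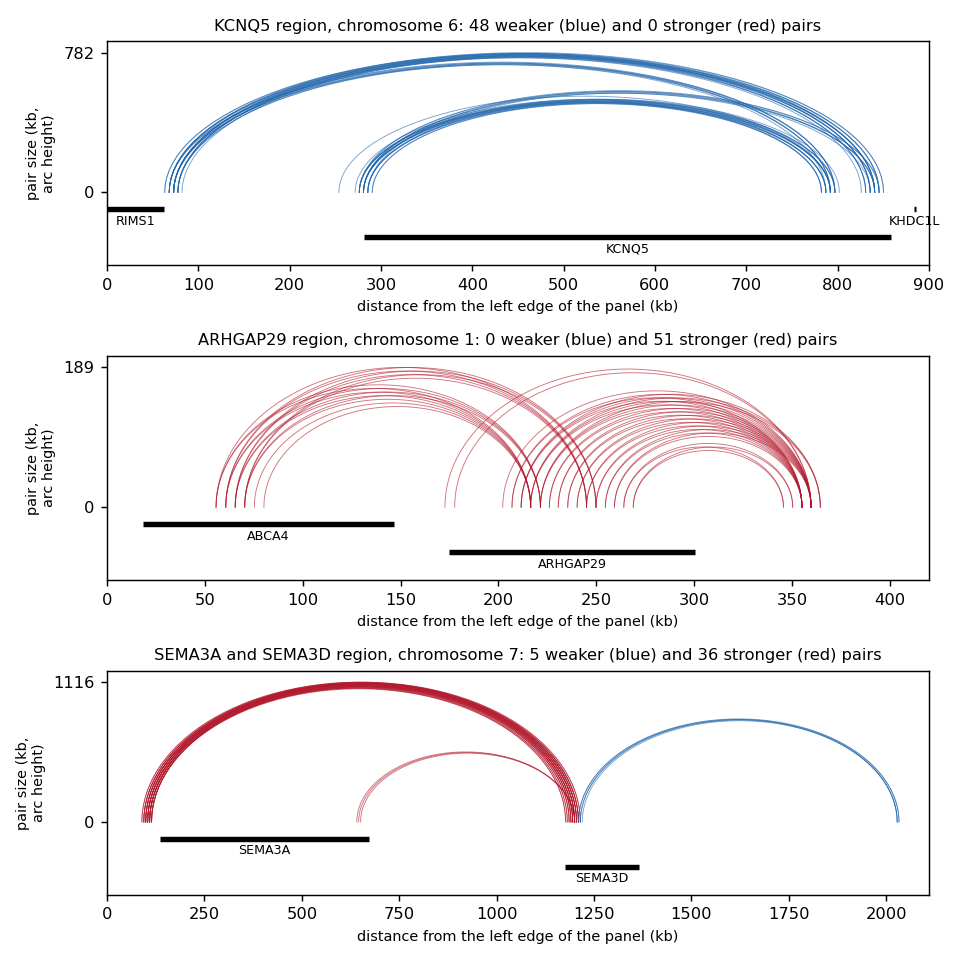
Weaker (blue) and stronger (red) anchor pairs drawn as arcs between their anchor midpoints in 3 regions, with protein-coding genes as black bars, distance from the left edge of each panel in kb on the horizontal axis and arc height proportional to pair size in kb. The KCNQ5 panel holds 48 weaker pairs and the ARHGAP29 panel 51 stronger pairs, while in the SEMA3A and SEMA3D panel 36 stronger arcs on the left and 5 weaker arcs on the right meet at SEMA3D.

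At a few sites 1 loop was lost and another gained, to the same side or to opposite sides. Anchors of weaker and stronger loci lay within 10 kb of each other in 19 combinations, from 10 weaker and 17 stronger loci. The widest contrast was at SEMA3D, whose anchor lost contact with a site 818 kb to the right, from 9.18 to absent, and gained contact with a site 1101 kb to the left, from 6.65 to 14.4. Within GULP1, an engulfment adapter gene on chromosome 2, a loop of 933 kb fell from 9.66 to 4.38, while a loop of 218 kb to the start of the gene was absent from 42MGBA and had 8.41 after correction. The far end of the same long loop gained contact over 87.5 kb with TFPI, a coagulation inhibitor, from 5.203 to 9.09. On chromosome 15 an intergenic anchor lost a loop of 1044 kb to FSIP1, from 8.25 to absent, and gained one of 144 kb, from 5.32 to 9.92. In each of these 4 cases except SEMA3D the lost loop was longer than the gained one.

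The weaker loops were long and the stronger loops short. Weaker pairs had a median size of 573 kb (quartiles 364 and 762 kb), stronger pairs 213 kb (142 and 355 kb), and all merged pairs 299 kb (185 and 466 kb). Of merged pairs under 100 kb, 0.0114% were weaker and 1.51% stronger. Of those from 500 to 1000 kb, 2.71% were weaker and 0.373% stronger, and of those from 1000 to 2000 kb, 4.37% and 1.33%. The order held within chromosomes: the median weaker pair was longer than the median merged pair on 13 of 13 chromosomes with at least 20 weaker pairs, and the median stronger pair was shorter on 13 of 14. It was part of a trend over all merged pairs, whose median log2 ratio went from 0.13 under 100 kb to -0.30 from 1000 to 2000 kb. When the median of pairs of similar size was subtracted first, the most extreme weaker pairs had a median of 295 kb and the most extreme stronger pairs 465 kb, so that the order turned.

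**Figure D4:**
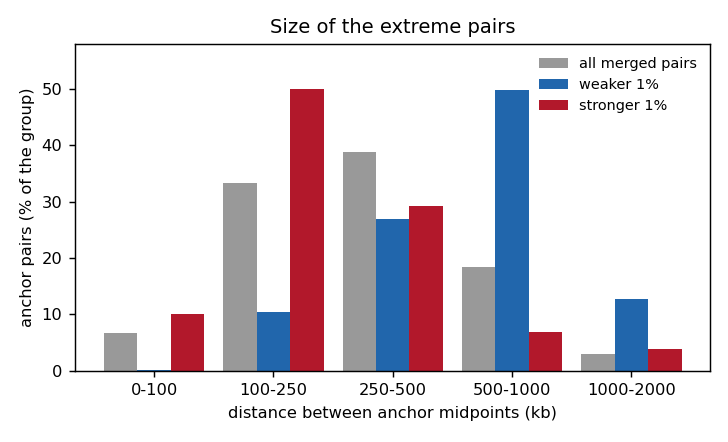
Share of all merged (grey), weaker (blue) and stronger (red) anchor pairs, in percent of each group, by the distance between anchor midpoints in kb. Of weaker pairs 49.8% lie between 500 and 1000 kb, and of stronger pairs 49.9% lie between 100 and 250 kb.

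The weaker pairs were also concentrated on a few chromosomes. Chromosome 11 held 336 of them (25.6%) with 5.53% of all merged pairs, and chromosome 6 held 180 (13.7%) with 5.15%. The other merged pairs of both chromosomes were shifted too, as their medians of -0.43 and -0.36 show, against -0.11 over the genome. After the median of each chromosome was subtracted, both together held 9.07% of the most extreme weaker pairs instead of 39.3%. What shifted whole chromosomes was not tested. The stronger pairs were spread more evenly, with 179 on chromosome 5, 161 on 14, 160 on 1, 152 on 2, 133 on 7 and 132 on 10. Chromosome 10, with 4.08% of merged pairs, held 10.1% of the stronger ones. Chromosome 9 had 54 stronger and 0 weaker pairs among 2931 merged.

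**Figure D5:**
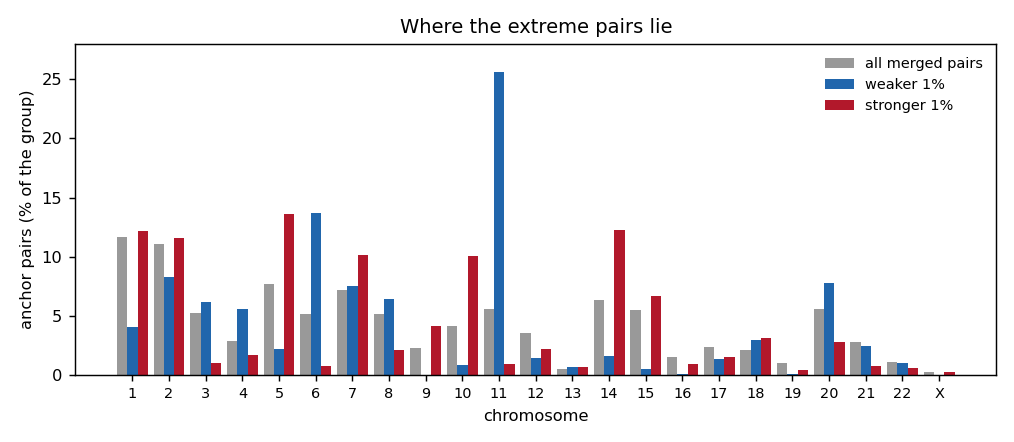
Share of all merged (grey), weaker (blue) and stronger (red) anchor pairs on each chromosome, in percent of each group. Chromosomes 11 and 6 hold 25.6% and 13.7% of the weaker pairs, and the stronger pairs are highest on chromosomes 5, 14, 1 and 2.

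CTCF motifs in convergent orientation, which the ranking did not use, were more frequent in weaker pairs, as were motifs at both anchors in any orientation. The latter were present in 81 weaker pairs (6.17%), 37 stronger pairs (2.82%) and 5824 merged pairs (4.44%). Convergent motifs were present in 46 weaker pairs (3.51%), 14 stronger pairs (1.07%) and 2726 merged pairs (2.08%). With the median of each chromosome subtracted first, the shares were closer, 2.67% of the weaker and 1.37% of the stronger pairs. The opposite, divergent orientation was present in 11 weaker (0.838%), 12 stronger (0.915%) and 0.656% of merged pairs. Counted by locus, 37 of 301 weaker loci (12.3%) and 13 of 358 stronger loci (3.63%) held a convergent pair, against 9 and 10 with a divergent one. Between 100 and 250 kb the convergent share was 4.38% of weaker, 0.611% of stronger and 2.22% of merged pairs. From 500 to 1000 kb it was 3.83% of weaker and 1.99% of merged pairs, and the stronger share of 3.33% there rested on 3 pairs.

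Both kinds of extreme loops enclosed fewer genes per length than the merged loops. A start of a protein-coding gene lay within 3 kb of an anchor in 22.9% of weaker and 24.7% of stronger pairs, against 32.2% of all merged pairs. For stronger pairs this order turned with the median of each chromosome subtracted, when the share was 34.3%. Between the anchors, weaker pairs held 2.06 genes per Mb, stronger pairs 1.95 and merged pairs 3.20. The anchors had a median GC content of 41.1% in weaker, 40.7% in stronger and 42.2% in merged pairs. Of weaker pairs between 250 and 500 kb the density was 4.91 genes per Mb, above the 3.43 of merged pairs of that size, and between 500 and 1000 kb it was 1.68 against 2.65. No gene had both a weaker and a stronger pair at a start. Only 2.48% and 3.78% of 3835 genes had either, so that the lack of overlap says little. Anchors inside a gene, away from its start, are not counted here.

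Of the 3835 genes with a merged pair at a start, 95 had a weaker pair (2.48%) and 145 a stronger pair (3.78%). The lists of genes described next were chosen with earlier results of these data known, and their counts are read beside these shares. A gene is counted if any of its pairs is extreme, so that genes with many merged pairs are counted more readily. The shares were not adjusted for this.

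Extreme pairs at cytokine genes were all stronger. Of 49 cytokine and chemokine genes 20 had a merged pair at a start. Of those 6 had a stronger pair (30%, against 3.78% of all genes) and 0 a weaker one (against 2.48%). The merged pairs of these 6 genes ranged from 4 at CCL8 to 68 at IRF1. OSMR, the receptor subunit for oncostatin M, went from 1 listed pair in 42MGBA to 39 in 42MGBA 53-1, and its most extreme pair was absent from 42MGBA and had 8.34 after correction. CCL8, a monocyte chemokine, went from 0 to 9 listed pairs, with a most extreme pair of 8.14 in 42MGBA 53-1. The neighbouring chemokine gene CCL13 had 3 stronger pairs, the most extreme from 6.26 to 11.3. The most extreme pairs of CCL8 and CCL13 shared their left anchor and lay in 1 region of 11 stronger pairs. These 2 genes are therefore not separate changes. IL6, an inflammatory cytokine, had 5 stronger pairs with strengths of 5.11 to 6.70 in 42MGBA and 7.91 to 11.2 in 42MGBA 53-1, although 18 of its 49 merged pairs were lower. IL1R1, the interleukin-1 receptor, had 29 merged pairs, all higher, and IRF1, an interferon response factor, had 67 of 68 higher. Under 4 other measures of change the list had 3 to 7 genes at stronger pairs and 0 at weaker ones, with 3 of them, OSMR, CCL8 and CCL13, left when the median of similar size was subtracted.

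Extreme pairs at genes of the extracellular matrix and adhesion were also all stronger, at a smaller share of the list. Of 41 with a merged pair, 7 had a stronger pair (17.1%, against 3.78% of all genes) and 0 a weaker one (against 2.48%). The merged pairs of these 7 genes ranged from 11 at ITGA4 to 158 at THBS1, and many pairs give more chances of an extreme one. LAMC1, a laminin chain, went from 3 listed pairs to 84, and ITGA4, an integrin subunit, from 4 to 22, while COL12A1, a collagen, went the other way, from 238 to 177. COL12A1, COL1A1, THBS1, CCN1 and ADAMTS1, which encode collagens and secreted matrix proteins, had 1 to 3 stronger pairs each. The most extreme pair at THBS1 joined 2 adjacent anchors with midpoints 4.93 kb apart, and 1 at COL12A1 spanned 9.76 kb including both anchors. The starts of CCN1 and ADAMTS1 had about as many lower (20 and 31) as higher (22 and 34) merged pairs. This direction depended on the measure of change. With the median of similar size subtracted, 3 genes of the list were at stronger pairs and 3 at weaker ones, the latter CD44, COL1A2 and COL4A2.

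The remaining lists moved little or both ways. Among neural and glial transcription factors, 3 of 31 had a weaker and 2 a stronger pair. FOXP1, a forkhead factor, went from 105 listed pairs to 8, with all 42 merged pairs lower. EOMES, a T-box factor, had 4 weaker pairs and SOX4, a factor of progenitor cells, 1. SOX4 was no longer at an extreme with the median of similar size or of the chromosome subtracted or by the residual of a regression, and FOXP1 not with the median of similar size subtracted. LHX8, a homeobox factor, had 2 stronger pairs. Of 35 genes of TGF-beta, BMP and WNT signalling, WNT7A, a WNT ligand, had 5 weaker pairs and went from 14 listed pairs to 0, while INHBA, a subunit of activin, had 9 stronger pairs and TGFB2 1. The start of INHBA was divided, with 37 merged pairs lower and 38 higher, and with the chromosome median subtracted it held extreme pairs of both directions. TGFB2 was no longer at an extreme with the median of similar size or of the chromosome subtracted.

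Of 16 ion channel and glutamate genes, KCNQ5 and SLC1A2 had weaker pairs and KCNMA1, a calcium-activated potassium channel, 1 stronger pair. KCNQ5 was at weaker pairs under all 4 other measures, while SLC1A2 was not with the chromosome median subtracted or by the residual, and KCNMA1 was at an extreme only under the quantile match. Of 23 axon guidance genes, SEMA5A and NRP1, a semaphorin and a semaphorin receptor, had 4 and 2 stronger pairs. The direction of that list depended on the measure: SLIT2 and EPHA4 were at weaker pairs under the quantile match and SEMA6D and EPHA4 with the chromosome median subtracted (3 genes named after their values were seen), and NRP1 was not at an extreme with that median subtracted or by the residual. Of 11 receptor tyrosine kinases, PDGFRA alone was at an extreme. It had 12 weaker pairs with strengths of 9.28 to 12.8 in 42MGBA and up to 6.12 after correction, its listed pairs went from 148 to 49, and all 60 of its merged pairs were lower. Of 11 cell cycle and tumour suppressor genes, MYC had 3 weaker pairs, the most extreme from 9.64 to 4.57, with 90 of 118 merged pairs lower. None of the 4 cohesin and loop extrusion genes with a merged pair was at an extreme.

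Some genes outside these lists were chosen after their values were seen, for having many extreme pairs. GJA1, the gap junction protein of astrocytes, and FOXF2, a forkhead factor, both on chromosome 6, had 12 weaker pairs each, and JUN, a subunit of the AP-1 transcription factor, had 8. The most extreme pair at JUN had 11.04 in 42MGBA and was absent after correction, over 785 kb. ARHGAP26, a GTPase-activating protein gene on chromosome 5, had 17 stronger pairs, the most of any gene start, and its most extreme pair rose from 4.98 to 9.24. NR3C1, the glucocorticoid receptor and its neighbour, had 6 stronger pairs, the most extreme of which joined it to ARHGAP26 over 348 kb and was absent from 42MGBA. Expression of these genes was not analysed here.

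In the H4 pair, a second GBM cell line and its STAG2-corrected derivative H4 88-1 that the ranking did not use, the leading loci had mixed values, computed in the same way with the minimum of a list in place of an absent pair. The lowest 1% of that pair's own merged loops began at a log2 ratio of -0.67 and the highest 1% at 0.85, with a median of 0.07 over all of them. No pair was listed in H4 or H4 88-1 for 3 of the 24 leading loci, those at DSCAM and ARHGAP29 and the RAD51B locus of 14 pairs, and the AFF3 and ZNF280D loci had 1 and 2 listed pairs. Among the loci with listed pairs, only the FIGN locus had pairs past either limit, with 3 of 30 below, and all 30 of its pairs were lower in H4 88-1. The KCNQ5 loops were listed in H4 at similar strength before and after correction: the most extreme pair of the first KCNQ5 locus had 13.8 in H4 and 14.1 in H4 88-1. The RAD51B locus that led the stronger pairs was higher in 17 of 18 pairs, with a median of 0.33.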

How the data were processed

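Per the labels and the methods of the study, Hi-C libraries of 42MGBA and 42MGBA 53-1 (2 replicates each, made with the Arima Hi-C+ kit) were trimmed, aligned to hg19 with Bowtie, assigned to anchors (median length 4.9 kb), corrected with HiCorr and enhanced with DeepLoop (LoopEnhance). Loop strength is deposited as a signal for the 300000 strongest anchor pairs per cell line, with replicates pooled by the authors. Without counts or replicates, neither depth nor error can be given.

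The 100000 strongest pairs of both lists were matched on both anchors, and absent pairs received the lowest listed strength. Pairs were ranked by log2 ratio, 1% was taken in each direction, and neighbours within 10 kb were joined by single linkage. Genes were protein-coding genes of GENCODE v44lift37 with a protein-coding transcript start within 3 kb of an anchor, and all anchors lay within the chromosome lengths of GRCh37. The text names the 12 leading loci per direction with at least 3 pairs, the 6 regions per direction with most pairs, the 4 anchors with the largest sum of opposite changes, members of 9 gene lists at extreme pairs, and STAG1 and STAG2. A few items that this rule would name are not reported here. Members and lists were chosen with earlier results of these data known. The steps were tested on simulated data. Alternatives changed the pairs merged, absent pairs, the limit, the scaling, joining and gene starts. The 12 RNA-seq samples were not analysed here. Computations used matplotlib 3.10.9 for plots, scipy 1.17.1 for joining, pandas 2.3.3 and numpy 2.4.6 for tables, and Python 3.11.15.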

Additional observations from a re-analysis of the deposited data

Results flagged for a closer look

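Several loci that were weaker in 42MGBA 53-1 had every listed pair above 0 in the H4 pair. The median log2 ratio over all merged pairs of the H4 pair was itself 0.07. Its list minima were 4.14 in H4 and 4.44 in H4 88-1. The smaller positive medians below lie not far above that shift, and only that of WNT7A passed the upper 1% limit of 0.85. Differences between the 42MGBA and H4 pairs were not tested, since each cell line has 1 pooled list. All 22 pairs of the narrower SESN3 locus on chromosome 11, weaker in 42MGBA 53-1, were higher in H4 88-1 than in H4, with a median log2 ratio of 0.28. The same was true of the 9 pairs around HAS2 (median 0.25) and of the 13 listed pairs between SGK1 and ALDH8A1 (median 0.18). The widest gap among loci was at MICAL2 and TEAD1, where 11 of 11 pairs were higher in H4 88-1, with a median of 0.73, and the most extreme pair went from 8.78 to 15.5 in the H4 pair but from 11.3 to absent in the 42MGBA pair. The wider loci at SESN3 and MICAL2 did not share this direction. At the wider SESN3 locus 17 of 33 pairs were lower in H4 88-1, with a median of -0.05. At the wider MICAL2 locus 10 of 11 were lower, with a median of -0.14. Among listed genes, the 4 weaker pairs of EOMES had a median of 0.17 in the H4 pair. The 5 weaker pairs of WNT7A had a median of 1.30 there, and the most extreme of them went from 5.35 in H4 to 14.0 in H4 88-1.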

How the results depend on the processing

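No paired analysis was possible because the replicates of each cell line are pooled in the lists. Of 139 alternative values, 84 stayed within the limits set for them and 55 did not. Those limits were 1.5-fold for counts and, for shares and medians, a 95% interval that treats neighbouring pairs as independent and is therefore too narrow. The shares of pairs with convergent motifs stayed within it in every alternative run. The weaker share came near the lower end of 2.64% with the chromosome median subtracted, when it was 2.67%. With 50000 pairs merged per list, or with 0.5% per direction, which gave equal values, there were 154 weaker and 190 stronger loci, 60 and 61 genes, 46.5% of weaker pairs on chromosomes 6 and 11, and a gene start in 19.8% of stronger pairs. With 200000 pairs merged there were 576 weaker and 669 stronger loci, 210 and 301 genes, a median weaker size of 551 kb, 36.2% on chromosomes 6 and 11 and a gene start in 27.4% of stronger pairs. With 2% per direction the values were 576, 667, 210, 301, 551 kb, 36.2% and 27.4%. Without pairs absent from a list, the weaker pairs had a median of 516 kb, 26.7% had a gene start, 33.9% lay on chromosomes 6 and 11, and 7 of the 12 leading weaker loci were named again. The other leading weaker loci hold absent pairs alone, so that they could not be named again. With the median of similar size subtracted, the median sizes were 295 and 465 kb, gene starts lay at 29.4% of weaker and 20.96% of stronger pairs, 167 genes had a weaker pair and 43.6% of weaker pairs lay on chromosomes 6 and 11. With the chromosome median subtracted, the sizes were 597 and 187 kb, the share on both chromosomes 9.07% and the gene start share of stronger pairs 34.3%. The residual of a regression gave 529 and 258 kb and a gene start at 26.5% of weaker pairs. Gene start shares of weaker and stronger pairs were 13.1% and 14.2% with the start inside the anchor, 38.4% and 42.5% within 10 kb (157 and 218 genes), and 35.98% and 38.57% with any transcript of the gene, an alternative added after seeing the data. The share of merged pairs with a gene start was not recounted under these definitions, so that these shares cannot be set against the merged share given above. Also added after seeing the data, leaving out chromosomes 6 and 11 left 54 genes, a median of 612 kb and a gene start at 19.7%. It left 3 of the leading weaker loci, a count fixed beforehand because the others lie on those chromosomes. The causes were not tested.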
